A study of Arabidopsis thaliana with 12 samples.

Results

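The splicing events that the submitters listed for the smeb mutants of Arabidopsis thaliana at 22 °C, without chilling, are described here event by event. The members are all rows of the authors' table for smeb under normal conditions, with identical rows counted once. This gave 34 distinct events in 27 genes, of 1911 distinct events in 1502 genes over the 3 event tables of the series. RNA was sequenced from whole seedlings 12 days old, grown on MS medium, with 2 replicates per group. The groups were smeb-1 at 22 °C, smeb-2 at 22 °C, the wild type Col-0 at 22 °C, and smeb-1, smeb-2 and Col-0 after 24 h at 4 °C. The time label of the 22 °C groups reads 24 h, while the treatment protocol calls the unchilled state 0 h at 4 °C. smeb-1 and smeb-2 are named for SmEb (AT2G18740); the sources used here do not give their lesions, nor whether replicates came from separate cultures. The table gives each event a gene, a position, a kind, a p-value and a false discovery rate (FDR), with no value per sample, no size and no direction. Events are therefore called listed, never higher or lower, and the sequencing depth is unknown. Which groups the table sets against each other, and how the 2 alleles and their replicates were combined, is not stated in it.

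SmEb is a subunit of the Sm ring, the ring of proteins that assembles around the small nuclear RNAs of the spliceosome to form the small nuclear ribonucleoproteins (snRNPs). The U1 snRNP pairs with the 5′ splice site of an intron and the U2 snRNP binds near its 3′ splice site. Weakly defined splice sites can be used or passed over, which adds or removes an exon or leaves an intron in the messenger RNA, and many splicing factors regulate their own transcripts in this way.

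Neither SmEb nor its paralogue SmEa (AT4G30330) had a row in any of the event tables or gene lists of the series, so the tables hold no value with which the genotype labels could be checked.

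Cassette exons, exons that are either kept or skipped, were the most frequent kind with 13 of 34 events. 5 of them that lie in introns between coding exons are shown with 12 intron bases on each side, because their ends and lengths carry much of what follows. The sequences come from the NCBI RefSeq genome TAIR10.1, are written 5′ to 3′ on the gene's strand, and have the exon in capitals. They lie at chr5:640144-640214 on the minus strand (PRR7), chr1:11438662-11438711 on the plus strand (AT1G31870), chr2:13039247-13039295 on the plus strand (AT2G30600), chr4:11508619-11508680 on the minus strand (AT4G21660) and chr2:699938-700046 on the minus strand (AT2G02570).
PRR7: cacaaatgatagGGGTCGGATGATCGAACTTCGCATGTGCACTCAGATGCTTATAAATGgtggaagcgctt
AT1G31870: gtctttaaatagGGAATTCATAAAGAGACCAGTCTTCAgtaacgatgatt
AT2G30600: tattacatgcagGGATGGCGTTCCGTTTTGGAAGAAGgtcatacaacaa
AT4G21660: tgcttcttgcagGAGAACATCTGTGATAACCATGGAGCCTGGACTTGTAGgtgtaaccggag
AT2G02570: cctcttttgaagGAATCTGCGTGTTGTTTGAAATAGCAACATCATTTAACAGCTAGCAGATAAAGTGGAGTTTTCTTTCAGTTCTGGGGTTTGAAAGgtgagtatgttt
All 5 are preceded by AG and followed by GT, the ends of most introns, and none of the 5 is annotated as an exon with both of these ends.

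The number of events tested follows from the p-values and FDRs, because under the Benjamini-Hochberg rule their ratio times the number of tests is the rank of the event. The 34 events were 0.319% of 10657 events tested for smeb at 22 °C. For smeb under chilling, 13.2% of 10308 tested events were listed, and for Col-0 under chilling 13.8% of 9710. Of the 37899 annotated nuclear genes, 0.0712% were listed for smeb at 22 °C, 2.89% for chilled smeb and 3.01% for chilled Col-0. The last listed event at 22 °C, the cassette exon of AT3G07590, had rank 43. The 34 events left 9 ranks up to 43 unfilled, 8 of them between listed events with p above 0. The other 1 comes before the first of these, and whether its p was 0 is not known. Thus 9 tested events with a p as low as that of the last listed event stand in no row.

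The table at 22 °C has 55 rows, and 21 events stand in it as a pair of identical rows. These 21 events are all the events of the 15 genes that are also listed for chilled Col-0. The 13 events with a single row belong to the 12 other genes, none of which is listed for chilled Col-0 and 1 of which, AT4G19200, is listed for chilled smeb. The chilling tables have no repeated row. The ranks recovered at 22 °C hold no tie, but each event was counted once there, so a tie could not show a repeated row. Events with a pair of rows do follow each other without a gap at ranks 13 to 16 (AT1G08110, AT5G53048, LpxC4 and UBQ10). A repeated row with a rank of its own would leave a gap, so the repeated rows of these events took none. How the repeats arose was not tested.

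In the authors' deposited table the FDR was 0 for 11 events, under 0.001 for 22 and under 0.01 for 29, with a median of 2.85e-05 and a highest value of 0.0271. The 11 events also have a p listed as 0, so they cannot be ranked among themselves, and a listed 0 is not taken as an exact value. Of the 11 events with FDR 0 in the authors' deposited table, 7 were retained introns, out of 10 retained introns listed. Only 1 of the 13 cassette exons had FDR 0 in the authors' deposited table.

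**Figure D1:**
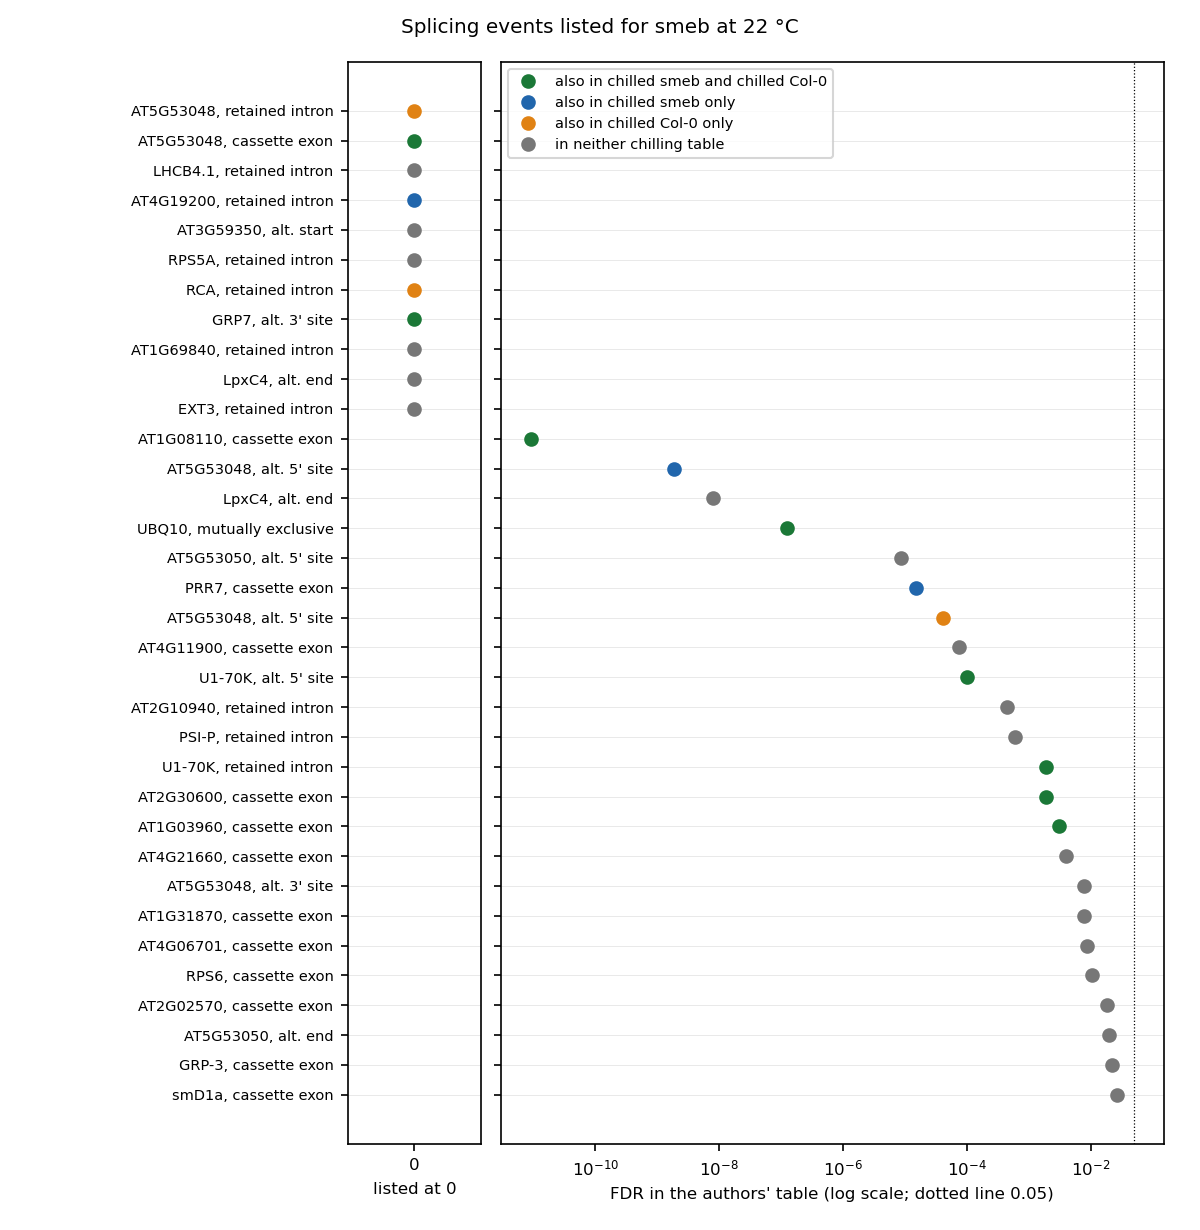
Each of the 34 events listed for smeb at 22 °C, one per line with its gene and kind, is placed by its FDR in the authors' deposited table (log axis), with the 11 events listed at 0 in a strip on the left. Colours show whether the identical event is listed in both chilling tables (8), for chilled smeb only (3), for chilled Col-0 only (3) or in neither (20).

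AT3G07590 (smD1a), U1-70K, AT4G21660, AT1G31870, AT2G02570 and GRP7 are taken first, for what their descriptions say of the spliceosome or of RNA binding, and this grouping is no count against a fixed list. AT3G07590, described in the authors' table as the snRNP protein smD1a, is itself a subunit of the Sm ring. A cassette exon of 73 nt (chr3:2423454-2423526, plus strand) was listed for it with FDR 0.0271 in the authors' deposited table, the highest FDR of all 34 events. The exon lies in an intron between coding exons, and 1 of its ends is an annotated exon edge. Its ends are shown with the exon in capitals, the start at chr3:2423442-2423465 and the end at chr3:2423515-2423538.
smD1a exon start: ctccgttgctagGTCTTATACAAG
smD1a exon end: TCACATGAATAGgttgagtaaaca
Read into the annotated transcript AT3G07590.1, the exon brings a stop codon inside itself and shortens the open reading frame to 45 residues, against 114 without it. This and the following lengths are computed from the reference sequence and were not measured in the mutants. No other Sm core gene was listed at 22 °C, and smD1a was listed in neither chilling table.

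U1-70K (AT3G50670) encodes the protein of the U1 snRNP that binds stem-loop I of the U1 RNA. Both of its events concern intron 6 of 8, which is 909 nt long (chr3:18827440-18828348, minus strand). Its retention was listed with FDR 0.00194 in the authors' deposited table. An alternative 5′ splice site that keeps the first 796 nt of the intron was listed at 9.93e-05 in the authors' deposited table. The splice sites concerned are shown with GT or AG in capitals, at chr3:18828334-18828358 (annotated 5′ site), chr3:18827538-18827562 (alternative 5′ site) and chr3:18827430-18827458 (3′ site).
U1-70K annotated 5′ site: aattaaacggGTaggttattctgag
U1-70K alternative 5′ site: caacataaagGTtgcctgccttata
U1-70K 3′ site: ttcttctgaaacttctcAGgttcatttgg
Either event puts a stop codon in the added piece and gives an open reading frame of 204 residues, against 427 for AT3G50670.1. The annotated transcript AT3G50670.2, which keeps the intron, has the same 204 residues. Both events are listed at the same positions in the chilling tables, each with FDR 0 in the authors' deposited tables for chilled smeb and chilled Col-0.

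AT4G21660 belongs to the proline-rich spliceosome-associated (PSP) family. Its cassette exon of 38 nt (chr4:11508631-11508668, minus strand) had FDR 0.00401 in the authors' deposited table and is in neither chilling table. The 3′ splice site in front of it is annotated, as the start of a longer exon in AT4G21660.3. Including the exon in AT4G21660.1 gives 232 residues, against 584 without it.

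AT1G31870 is an unknown protein in the authors' table and a pre-mRNA-splicing factor of the RES complex in the reference. The RES complex is known from yeast as a spliceosome-associated complex for retention and splicing. Its cassette exon of 26 nt (chr1:11438674-11438699, plus strand) had FDR 0.00787 in the authors' deposited table. With the exon the open reading frame of AT1G31870.1 has 386 residues, against 561. The gene, but not this event, is listed under chilling, with an alternative 3′ splice site at chr1:11437252-11437269 in both tables, at 5.41e-06 for chilled smeb and 5.77e-05 for chilled Col-0 in the authors' deposited tables.

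AT2G02570 is described as an RNA-binding protein, and the reference notes a Tudor domain of the survival motor neuron type. The survival motor neuron protein of animals loads Sm proteins onto small nuclear RNAs, but a shared domain does not give AT2G02570 this role. Its cassette exon of 85 nt (chr2:699950-700034, minus strand) had FDR 0.0187 in the authors' deposited table. A stop codon inside the exon leaves 56 residues, against 300 in AT2G02570.1. Other events of the gene are listed under chilling: a cassette exon of 68 nt for chilled smeb only and an alternative 3′ splice site in both tables.

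GRP7 (AT2G21660) is an RNA-binding protein with a glycine-rich tail, driven by the clock, that regulates the splicing of its own transcript. An alternative 3′ splice site (chr2:9265649-9265664, minus strand) was listed with FDR 0 in the authors' deposited table. The sites lie 15 nt apart, a multiple of 3, and the upstream one ends an intron that is annotated in AT2G21660.2 within the coding exon of AT2G21660.1. Both are shown at chr2:9265641-9265676 with AG in capitals.
GRP7 3′ sites: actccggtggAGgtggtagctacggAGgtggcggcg
The same event had FDR 0 in the authors' deposited tables for chilled smeb and chilled Col-0. GRP7 has 1 event at 22 °C, 4 for chilled smeb and 5 for chilled Col-0.

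Of the genes of the clock and of photosynthesis, PRR7, RCA, LHCB4.1 and PSI-P were listed. PRR7 (AT5G02810), a pseudo-response regulator that represses morning genes of the clock, had a cassette exon of 47 nt (chr5:640156-640202, minus strand) with FDR 1.54e-05 in the authors' deposited table. It lies inside an intron of 292 nt and carries a stop codon that leaves 272 residues, against 727 in AT5G02810.1. The identical exon is listed for chilled smeb with FDR 0 in the authors' deposited table. For chilled Col-0 the listed exon is another one, 118 nt long (chr5:640085-640202), with FDR 0 in the authors' deposited table. It begins at the same 3′ splice site and runs on to a later 5′ splice site. The 47-nt exon is not in the list for chilled Col-0, which does not show that it was absent there.

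RCA (AT2G39730) encodes Rubisco activase, which restores inhibited Rubisco, and its long and short proteins arise by alternative splicing of the last intron. Retention of this intron, intron 6 of 6 with 124 nt (chr2:16571067-16571190, minus strand), was listed with FDR 0 in the authors' deposited table. Its 5′ splice site is shown together with the alternative one 11 nt downstream (chr2:16571169-16571200) and its 3′ site (chr2:16571057-16571085), with GT and AG in capitals.
RCA 5′ sites: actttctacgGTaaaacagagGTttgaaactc
RCA 3′ site: aaacttacttgacttgcAGgaaaaggagc
With the intron kept, the frame ends inside it after 441 residues, the length of the annotated AT2G39730.3, while AT2G39730.1 has 474 and AT2G39730.2, made from the downstream 5′ site, has 446. The retention is listed again for chilled Col-0 with FDR 0 in the authors' deposited table, but not for chilled smeb. The alternative 5′ site is listed under chilling only, at 0.00145 for chilled smeb and 0.0226 for chilled Col-0 in the authors' deposited tables.

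LHCB4.1 (AT5G01530) is a minor antenna protein of photosystem II. Its retained intron of 24 nt (chr5:209956-209979) had FDR 0 in the authors' deposited table, lies inside a coding exon, and is described below with other such stretches. PSI-P (AT2G46820) is described as the photosystem I P subunit and is also known as the thylakoid protein CURT1B. Intron 1 of 6 of its transcript AT2G46820.2 was listed as retained, with 110 nt in the 5′ untranslated region. This event had FDR 0.0006 in the authors' deposited table. Neither gene is in a chilling table.

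**Figure D2:**
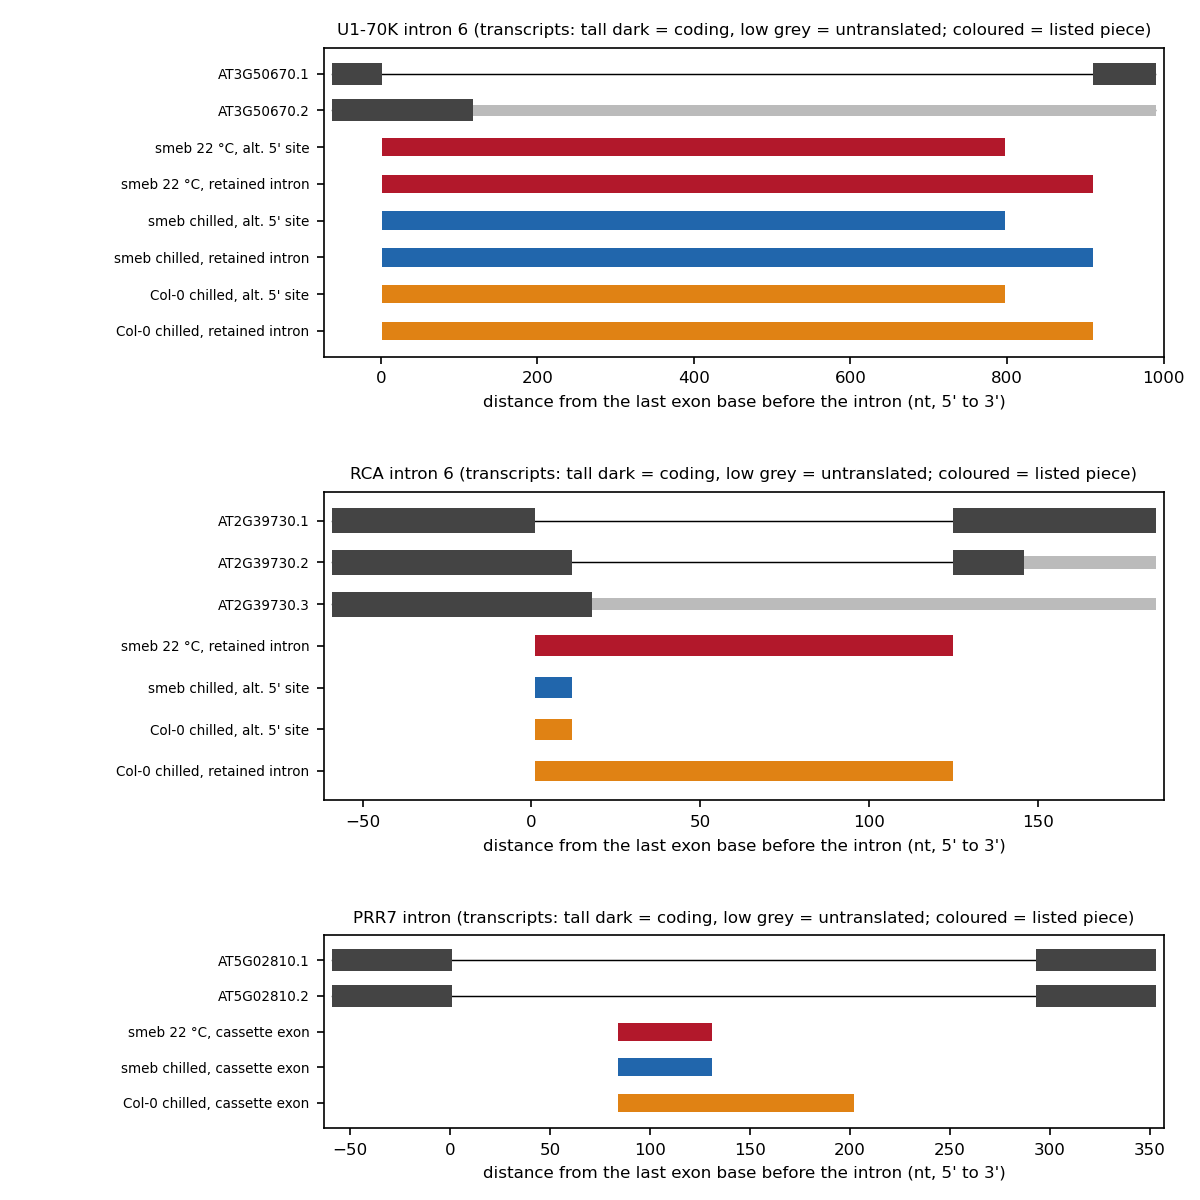
Listed pieces in intron 6 of U1-70K (909 nt), intron 6 of RCA (124 nt) and the intron of PRR7 (292 nt), drawn by distance from the last exon base before the intron in nt, 5′ to 3′. Annotated transcripts are on top, with the listed pieces for smeb at 22 °C, chilled smeb and chilled Col-0 below them; the U1-70K pieces are the same in all 3 tables, the RCA intron is listed as retained at 22 °C and for chilled Col-0, and the PRR7 exon is 47 nt in both smeb tables and 118 nt for chilled Col-0.

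Housekeeping genes of translation and protein turnover were listed with 1 event each. RPS5A (AT3G11940) encodes a protein of the small ribosomal subunit. Intron 1 of 4 of its transcript AT3G11940.2 (85 nt, 5′ untranslated region) was listed as retained with FDR 0 in the authors' deposited table. The gene is in no chilling table. UBQ10 (AT4G05320) encodes polyubiquitin, a chain of ubiquitin repeats that is cut into single ubiquitins. Its event of mutually exclusive exons (chr4:2719368-2719468) had FDR 1.23e-07 in the authors' deposited table. The same event is listed at 3.16e-09 for chilled smeb and 0 for chilled Col-0 in the authors' deposited tables. The placement of reads among the ubiquitin repeats was not tested, and the event is given as uncertain.

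EXT3, AT2G10940, AT4G19200 and LHCB4.1 each had a retained intron inside a coding exon, where no intron of the gene is annotated. EXT3 (AT1G21310) is extensin 3, a repetitive hydroxyproline-rich protein of the cell wall, and its stretch of 504 nt (chr1:7454253-7454756, minus strand) had FDR 0 in the authors' deposited table. AT2G10940, of the lipid-transfer protein superfamily, had a stretch of 30 nt (chr2:4311756-4311785, minus strand) at 0.00044 in the authors' deposited table. AT4G19200, a proline-rich protein, had one of 108 nt (chr4:10499383-10499490, plus strand) with FDR 0 in the authors' deposited table. All 4 stretches are multiples of 3 in length, so that leaving them out keeps the frame, with 263 residues against 431 for EXT3, 281 against 291 for AT2G10940, 143 against 179 for AT4G19200 and 282 against 290 for LHCB4.1.

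These 4 stretches begin and end in a direct repeat, so that the same messenger RNA results when both ends are moved by up to the length of the repeat. The repeat has 38 bases in EXT3, 17 in AT2G10940, 9 in AT4G19200 and 6 in LHCB4.1. For LHCB4.1 (chr5:209942-209987) and AT2G10940 (chr2:4311732-4311794) the whole stretch is shown with both copies of the repeat in capitals. For AT4G19200 (chr4:10499373-10499397 and chr4:10499481-10499505) and EXT3 (chr1:7454724-7454777 and chr1:7454220-7454273) the 2 copies are shown apart.
LHCB4.1: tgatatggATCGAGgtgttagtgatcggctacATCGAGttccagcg
AT2G10940: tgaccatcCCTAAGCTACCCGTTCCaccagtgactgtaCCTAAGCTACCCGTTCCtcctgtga
AT4G19200 upstream copy: cctcctcaAGGTTACCCaccacaac
AT4G19200 downstream copy: gcacctggAGGTTACCCtcctgctg
EXT3 upstream copy: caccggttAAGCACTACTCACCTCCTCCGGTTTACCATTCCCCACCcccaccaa
EXT3 downstream copy: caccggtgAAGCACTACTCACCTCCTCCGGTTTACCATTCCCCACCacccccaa
The other 6 retained introns have 1 to 3 such bases, and so do most introns of the genome: the median over 136306 annotated introns is 2, and 0.470% have 8 or more. Of the retained introns, 3 of 10 (30.0%) at 22 °C have a repeat of 8 or more, against 11 of 327 (3.36%) for chilled smeb and 9 of 286 (3.15%) for chilled Col-0. Unannotated retained introns that overlap a coding exon in every transcript covering them are also listed under chilling, 38 for chilled smeb and 30 for chilled Col-0, of which 19 and 14 have a repeat of 4 or more. The stretches of EXT3 and AT2G10940 have GT and AG at their listed ends only when read on the other strand, while those of AT4G19200 and LHCB4.1 do so on the gene's own strand. The end of the EXT3 stretch also touches the overlapping gene AT1G21313. The part of the repeats in these calls was not tested. AT4G19200 has the identical event, with FDR 0 in the authors' deposited table, for chilled smeb. It is the only gene of the 27 that stands in the authors' list of SmEb-independent genes, and none of the 27 stands in the list of SmEb-dependent genes. Those of the 27 genes that are listed in both chilling tables, such as U1-70K and GRP7, stand in neither list. The share of all genes in these lists is not given here, so nothing is read from these counts.

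**Figure D3:**
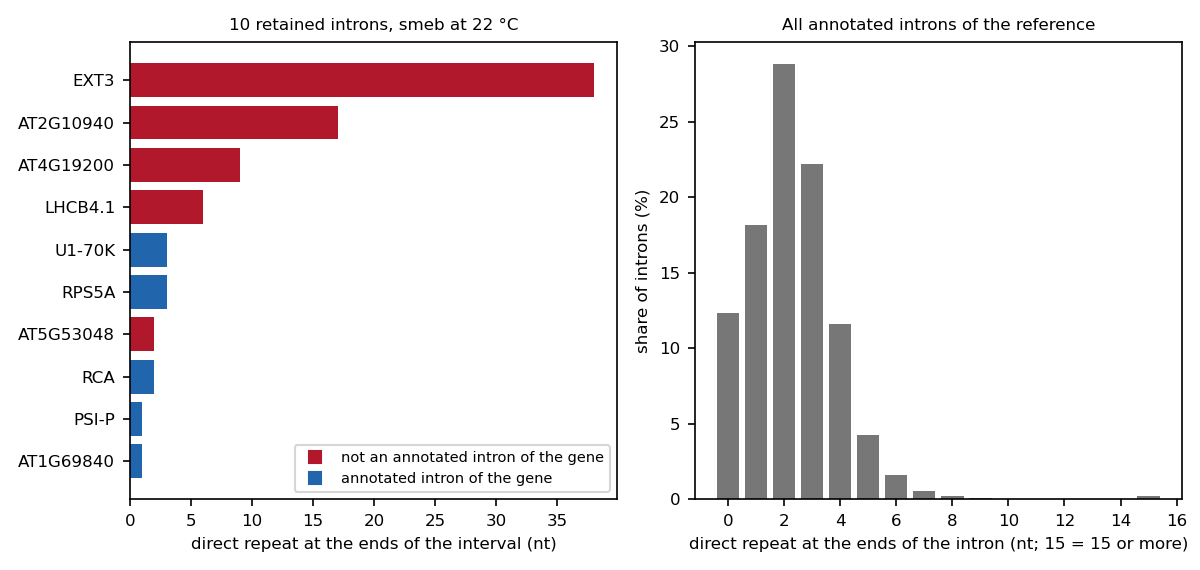
Left, the length in nt of the direct repeat at the ends of the 10 retained introns listed for smeb at 22 °C, in red where the interval is not an annotated intron of the listed gene and in blue where it is. Right, the share in percent of all 136306 annotated introns by the same length, with 15 standing for 15 or more; 4 unannotated intervals reach 6, 9, 17 and 38 nt, and the annotated introns of the table stop at 3 nt.

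GRP-3 (AT2G05520), a glycine-rich secreted protein, had a cassette exon of 7 nt (chr2:2026643-2026649, plus strand) with FDR 0.022 in the authors' deposited table. It is the shortest of the 13 and the only one without AG before and GT after it. It lies in a coding exon from which annotated transcripts cut out different short pieces. Under chilling, a retained intron of the gene that ends where this exon begins (chr2:2026585-2026643) is listed in both tables.

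Genes of signalling and defence had cassette exons or an alternative start. AT3G59350, a protein kinase, had an alternative start (chr3:21932712-21932971, plus strand) with FDR 0 in the authors' deposited table, the only event of this kind at 22 °C, and both of its ends are annotated. AT4G11900, an S-locus lectin receptor-like kinase, had an annotated exon of 56 nt (chr4:7150887-7150942, minus strand) at 7.4e-05 in the authors' deposited table. A stop codon in this exon leaves 709 residues, against 849 in AT4G11900.1. Neither kinase gene is in a chilling table. RPS6 (AT5G46470), a disease resistance protein of the TIR-NBS-LRR class, had an unannotated exon of 63 nt (chr5:18846965-18847027, plus strand) in an intron behind the coding span, with FDR 0.0107 in the authors' deposited table. Both chilling tables list another event of RPS6, a retained intron at chr5:18844142-18844225 with FDR 0 in the authors' deposited tables. AT1G03960, an EF-hand calcium-binding protein, had an annotated exon of 56 nt (chr1:1014621-1014676, plus strand) at 0.00306 in the authors' deposited table. With the exon AT1G03960.1 would have 152 residues, against 529. The event is listed again, at an FDR of 0 for chilled smeb and 1.56e-09 for chilled Col-0 in the authors' deposited tables.

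The remaining protein-coding genes have mixed roles. AT2G30600, a BTB/POZ domain protein, had a cassette exon of 25 nt (chr2:13039259-13039283, plus strand) at 0.00194 in the authors' deposited table, and at 0 in the authors' deposited tables for chilled smeb and chilled Col-0. Its 5′ splice site is annotated, as the end of a longer exon of AT2G30600.5, and including it gives 481 residues, against 809 in AT2G30600.1. AT1G08110, of the glyoxalase I family that detoxifies methylglyoxal, had an annotated exon of 16 nt (chr1:2535570-2535585, plus strand), which lies in the untranslated region of some transcripts and in the coding exon of others. It had an FDR of 9.1e-12 at 22 °C, 0 for chilled smeb and 6.87e-12 for chilled Col-0 in the authors' deposited tables. AT1G69840 is a membrane-associated SPFH/Band 7 protein. Intron 1 of 5 of its transcript AT1G69840.4 (430 nt, untranslated region) was listed as retained with FDR 0 in the authors' deposited table. The gene is in no chilling table.

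LpxC4 (AT1G25145), of a deacetylase family that acts in lipid A synthesis in bacteria, had alternative ends at chr1:8799542-8800436 (FDR 0 in the authors' deposited table) and chr1:8800356-8800436 (7.92e-09 in the authors' deposited table). Both lie outside the annotated gene (chr1:8818867-8820736), the nearer end 18431 bases before its start, and overlap AT1G24996 on the opposite strand. The retained intron listed for the gene under chilling lies outside it too, so the gene that these events belong to is uncertain. They were the only events at 22 °C outside the listed gene (32 of 34, or 94.1%, lie inside), and under chilling 97.0% lie inside.

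7 of the 34 events come from one place, where the long non-coding RNA gene AT5G53048 (plus strand, 1990 nt) and AT5G53050 (minus strand, 3526 nt), an alpha/beta-hydrolase gene, overlap by 1756 bases. AT5G53048 has 5 events, the highest number of any gene at 22 °C. Its annotated exon of 102 nt (chr5:21510944-21511045) and its retained intron of 126 nt (chr5:21511544-21511669) had FDR 0 in the authors' deposited table. Its alternative 5′ splice sites at chr5:21509922-21510421 and chr5:21510856-21510925 had 4.17e-05 and 1.86e-09 in the authors' deposited table. Its alternative 3′ splice site at chr5:21510489-21510501 had 0.00787 in the authors' deposited table. AT5G53050 had an alternative 5′ splice site (chr5:21511319-21511426) at 8.59e-06 and an alternative end (chr5:21510129-21510421) at 0.0197 in the authors' deposited table.

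The strand from which reads came cannot be read from the table, and some of these events join both genes. The retained intron of AT5G53048 has GT and AG at its ends only on the other strand, where both of its ends are exon edges of AT5G53050. In 3 further events, one end is an exon edge of AT5G53048 and the other an exon edge of AT5G53050. Only the 102-nt exon of AT5G53048 and the alternative end of AT5G53050 have both ends annotated in the listed gene. The exon is listed in both chilling tables, at 0.000197 for chilled smeb and 0 for chilled Col-0 in the authors' deposited tables. One 5′ splice site recurs for chilled smeb only and the other, with the retained intron, for chilled Col-0 only. Under chilling no event is listed under the name AT5G53050. However, a cassette exon listed for AT5G53048 for chilled smeb (chr5:21512348-21512443) had FDR 0.00734 in the authors' deposited table. It lies past the end of AT5G53048 (chr5:21511850) and has the position of an annotated exon of AT5G53050. The gene name therefore does not settle which of the 2 genes was listed under chilling. The other non-coding gene, AT4G06701, had an annotated exon of 45 nt (chr4:3940466-3940510, minus strand) at 0.00884 in the authors' deposited table, and in no chilling table.

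**Figure D4:**
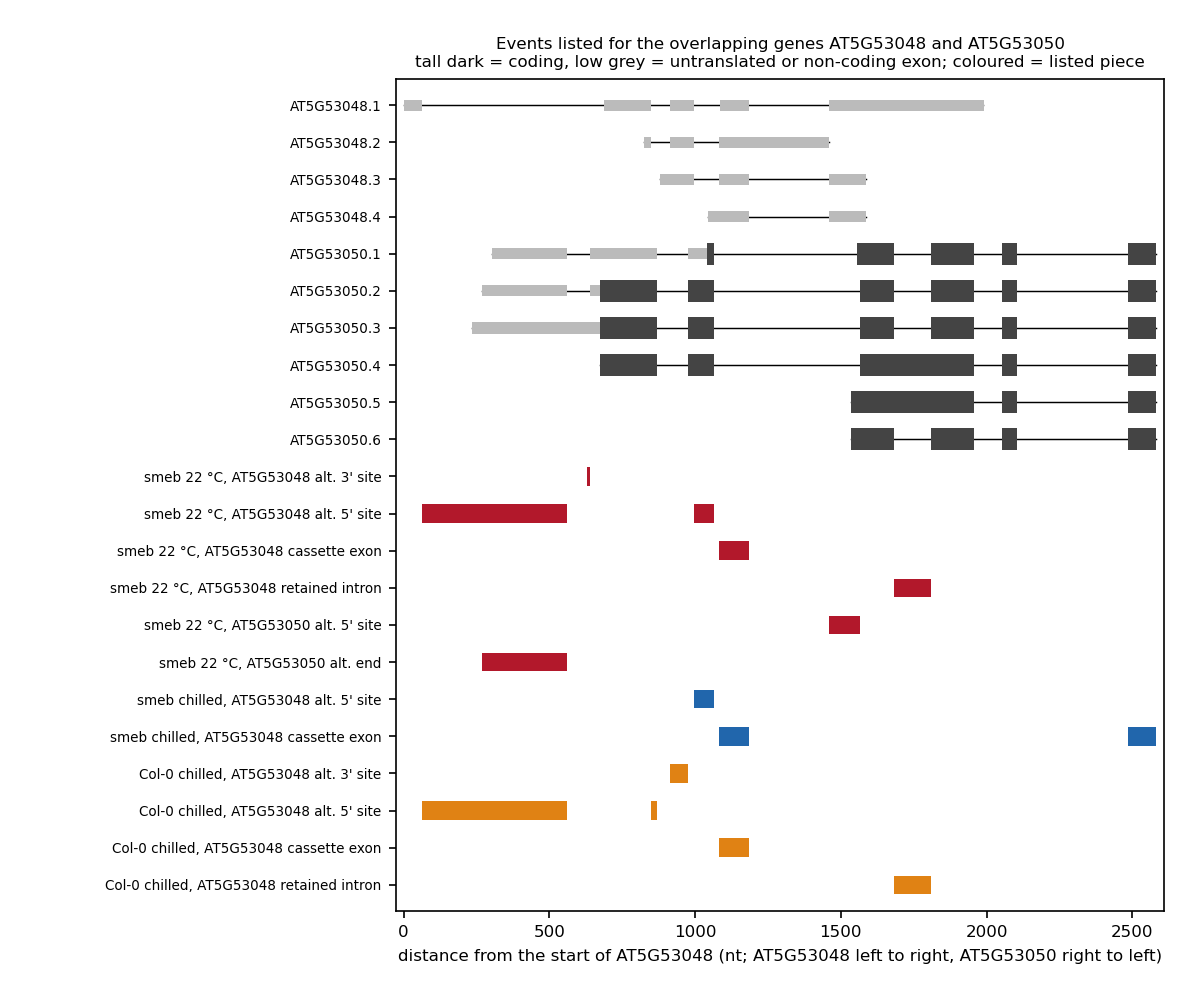
Annotated transcripts of AT5G53048 and AT5G53050 (top) and the events listed for either gene for smeb at 22 °C, chilled smeb and chilled Col-0 (coloured pieces), by distance in nt from the start of AT5G53048. Counted by the gene named for the event, AT5G53048 has 5 events at 22 °C, 3 for chilled smeb and 5 for chilled Col-0. AT5G53050 has 2 at 22 °C and none under chilling, although some events named AT5G53048 lie at exon edges of AT5G53050.

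By kind, cassette exons made up 38.2% of the events at 22 °C, against 28.5% for chilled smeb and 21.2% for chilled Col-0. Retained introns made up 29.4%, against 24.1% for chilled smeb and 21.4% for chilled Col-0. Alternative 3′ splice sites, the most frequent kind for chilled Col-0, were 2 events or 5.88% at 22 °C, against 22.6% for chilled smeb and 29.0% for chilled Col-0. Alternative 5′ splice sites were 4 events or 11.8%, against 16.8% for chilled smeb and 19.9% for chilled Col-0. The 3 alternative ends were 8.82%, against 1.10% for chilled smeb and 1.27% for chilled Col-0, and all 3 stand at LpxC4 or AT5G53050. With 34 events these shares are a description and no test was made.

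The cassette exons at 22 °C were short, with a length of 7 to 102 nt and a median of 47 nt, against medians of 77 nt for chilled smeb and 74.0 nt for chilled Col-0. Under 50 nt were 7 of 13 (53.8%), against 23.5% for chilled smeb and 25.4% for chilled Col-0. Of the 13, 5 (38.5%) are annotated exons of the gene, against 70.3% for chilled smeb and 59.2% for chilled Col-0. AG before and GT after the exon were found in 12 of 13 (92.3%), a share close to the 93.5% for chilled smeb and 93.0% for chilled Col-0. The last 3 exon bases and first 6 intron bases at the 5′ splice site, the stretch that pairs with the U1 RNA, were compared with AAGGTAAGT, the most frequent base at each position over 131269 annotated 5′ splice sites. The 12 exons with AG and GT matched it at 4 to 8 of 9 bases with a median of 6.0, the same median as for chilled smeb, for chilled Col-0 and for the annotated sites. PRR7, AT1G31870, AT3G07590 (smD1a) and AT4G21660 had the fewest matches with 4 each, and AT2G02570 and AT4G11900 the most with 8 each. Multiples of 3 in length were 3 of 13 (23.1%), against 35.4% for chilled smeb and 40.1% for chilled Col-0. Of the 9 that lie between coding exons, none is a multiple of 3, 5 bring a stop codon with them, and all 9 would shorten the protein if included, although for GRP-3 this rests on an annotated intron of only a few codons.

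Of the 10 retained introns, 5 are annotated introns of the listed gene: those of AT1G69840, RCA, PSI-P, RPS5A and U1-70K. Under chilling the share was 77.1% for smeb and 75.5% for Col-0. Introns of the untranslated region (AT1G69840, PSI-P and RPS5A) leave the coding sequence as it is, whereas those of RCA and U1-70K end the frame inside the intron. In AT1G69840, PSI-P and RPS5A, other annotated transcripts have an untranslated exon that overlaps the stretch.

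Of the 34 events at 22 °C, 11 (32.4%) are listed with the same gene, kind and position for chilled smeb, where they are 0.809% of that table. Likewise 11 (32.4%) are listed for chilled Col-0, 0.822% of that table. Over all tested events, 13.2% were listed for chilled smeb and 13.8% for chilled Col-0. The events in both chilling tables are 8: the cassette exons of AT1G03960, AT1G08110, AT2G30600 and AT5G53048, the alternative 3′ site of GRP7, both events of U1-70K and the UBQ10 event. For chilled smeb only, 3 recur: the PRR7 exon, the AT4G19200 stretch and the AT5G53048 5′ site at chr5:21510856-21510925. For chilled Col-0 only, 3 recur: the RCA intron, the AT5G53048 retained intron and its 5′ site at chr5:21509922-21510421. The other 20 events are in neither chilling table. By kind, 5 of 13 cassette exons, 4 of 10 retained introns, 3 of 4 alternative 5′ sites, 1 of 2 alternative 3′ sites and the UBQ10 event recur in at least one chilling table, while no alternative end or start does. Of the 11 events with FDR 0 in the authors' deposited table, 5 recur in at least one chilling table, beside 14 of all 34 events. The share of all tested events listed in at least one chilling table is not known.

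Of the 27 genes, 16 (59.3%) are listed for chilled smeb, 1.46% of its genes, and 15 (55.6%) for chilled Col-0, 1.32% of its genes. Over all annotated genes, spliced or not, 2.89% were listed for chilled smeb and 3.01% for chilled Col-0. Only 24197 of these 37899 genes have an intron, and the share over the genes tested is not known. All 15 genes listed for chilled Col-0 are also listed for chilled smeb, where AT4G19200 is the further gene. For 7 of the 16 and for 7 of the 15 only other events of the gene are listed. LpxC4, AT1G31870, AT2G02570, GRP-3, AT2G10940 and RPS6 have other events only in both chilling tables, RCA for chilled smeb and PRR7 for chilled Col-0. The 11 genes in neither are EXT3, AT1G69840, PSI-P, AT3G07590 (smD1a), RPS5A, AT3G59350, AT4G06701, AT4G11900, AT4G21660, LHCB4.1 and AT5G53050. Genes are counted by the name given to the event, and some chilling events named AT5G53048 lie at exon edges of AT5G53050. The tables may share libraries, so that a shared event is not an independent repeat, and an event that is not listed may have missed the threshold or never been tested.

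**Figure D5:**
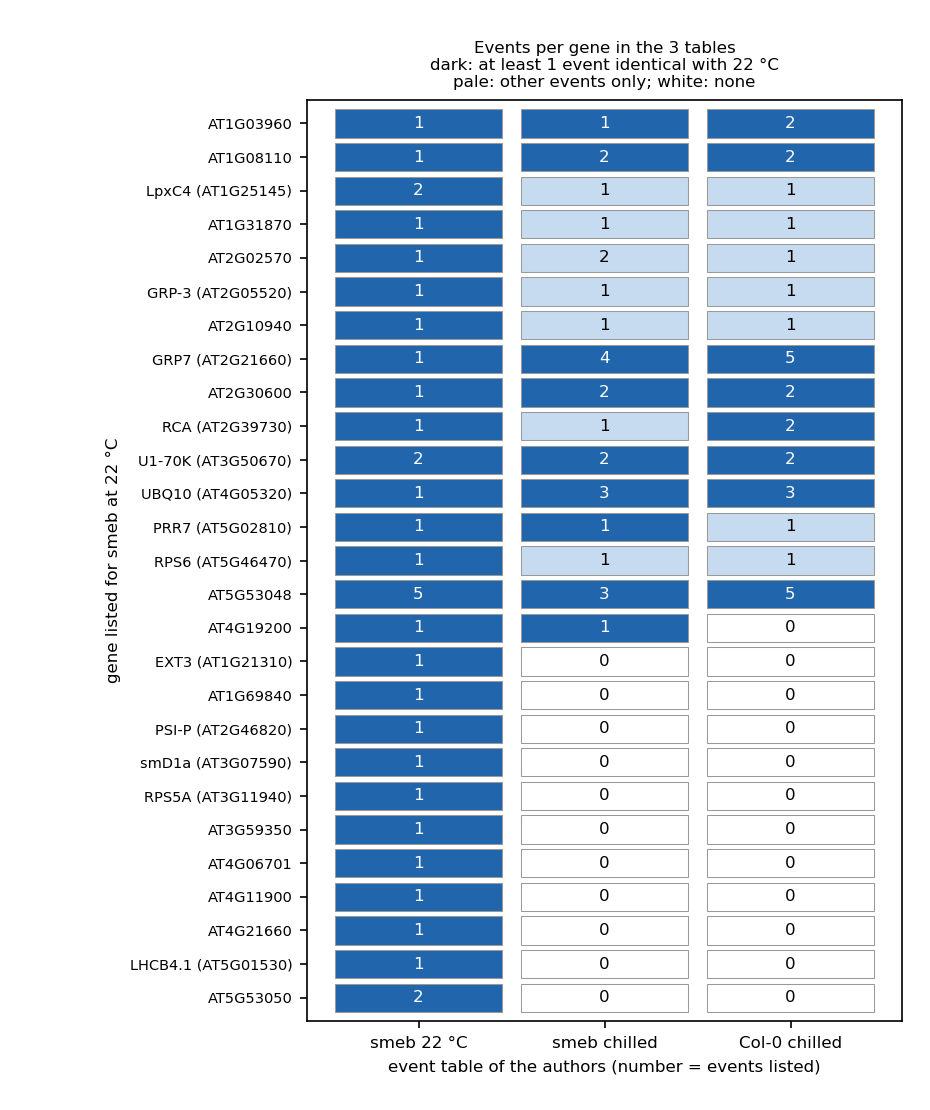
Number of events listed for each of the 27 genes, counted by the gene named for the event, for smeb at 22 °C, chilled smeb and chilled Col-0. Dark cells hold at least 1 event identical with one at 22 °C, pale cells other events of the gene only, and white cells none; 15 genes have events in all 3 tables and 11 only at 22 °C.

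Lists of related genes place these members among their families. Over all annotated genes, spliced or not, 0.0712% were listed at 22 °C, 2.89% for chilled smeb and 3.01% for chilled Col-0. The share over the genes tested is not known, and nothing particular to a list is read from its count. Of 13 Sm core genes, 1 was listed at 22 °C (smD1a), none for chilled smeb and none for chilled Col-0. Of 11 LSm genes, which form the related ring on the U6 RNA and on messenger RNAs, none was listed at 22 °C, 1 for chilled smeb and none for chilled Col-0. Of 14 genes of the U1 snRNP and of U2AF, the factor that recognises 3′ splice sites, 1 was listed at 22 °C (U1-70K), 8 for chilled smeb and 7 for chilled Col-0. Of 20 SR splicing factors, which bind exonic RNA and recruit the spliceosome, none was listed at 22 °C, 10 for chilled smeb and 9 for chilled Col-0. Of 5 hnRNP-like RNA-binding proteins, 1 was listed at 22 °C (GRP7), 5 for chilled smeb and 4 for chilled Col-0. Of 19 clock genes, 1 was listed at 22 °C (PRR7), 8 for chilled smeb and 8 for chilled Col-0. Of 23 genes of light harvesting and Rubisco, 2 were listed at 22 °C (RCA and LHCB4.1), 2 for chilled smeb and 3 for chilled Col-0.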

How the data were processed

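Reads were processed by the submitters with Trimmomatic 0.32 and TopHat2 2.0.13 on TAIR10, per the submitters' processing notes; the sources used here name no event caller, filter or use of strand. The values used are the p-value and the FDR that the authors deposited per event, which the file headers call adjusted P value and FDR. Identical rows were counted once. An event recurred where gene, kind and position were the same. Positions are 1-based, as in the authors' tables, and 1 base was taken off each end of a listed retained intron. They were matched to the RefSeq annotation of TAIR10.1 (37899 nuclear genes), in whose genes 1834 of 1891 chilling events (97.0%) lie. Open reading frames were computed by adding or removing the listed piece in 1 annotated transcript, the first by name that allowed it. The recovery of the number of tests left 87.0% of ranks whole within 0.0001 at 22 °C and, tested on simulated data, found the number in 3 of 3 tables. The simulated tables were built with the Benjamini-Hochberg rule, held no p of 0 and lost rows at random. They therefore cannot show that the authors' FDRs follow this rule. The 5′ splice-site consensus was computed from the annotated introns. Python 3.11 was used. No value per sample exists in these tables, so no test, standard deviation or depth could be given. Every gene of the table was named, and the 7 gene lists and all members were chosen with earlier results of these data known. Alternatives were stricter FDR limits, repeated rows counted, other rules for a match, and genes left out.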

Additional observations from a re-analysis of the deposited data

How the results depend on the processing

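With repeated rows counted, the 34 events became 55, and at an FDR under 0.001 they became 22. With no base taken off the listed ends, 0 of the 10 retained introns matched an annotated intron, where 5 did, because the listed interval includes 1 exon base on each side. The 19 other alternatives stayed within 1.5 times. They include one chosen after seeing the data, without LpxC4, AT5G53048 and AT5G53050, most of whose events lie outside the listed gene or have an end that is not one of its exon edges: it left 25 events in 24 genes, with 9 events recurring for chilled smeb and 8 for chilled Col-0. No paired analysis was possible because the tables hold no value per sample, and for the same reason no replicate could be left out. The depth is unknown, so whether an unlisted event could have been detected is unknown too.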
